A study of Mus musculus with 6 samples.

Results

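The genes described here are the 10 listed genes next to Mir34a on mouse chromosome 4 (mm10), 6 on its low-coordinate side and 4 on its high-coordinate side, out of 41388 gene rows in the count table. They were chosen by position and name: Gm13067, H6pd, Spsb1, Slc25a33, Gm13068 and Tmem201 on the low side, in order of distance, and Gpr157, Slc2a5, Slc2a7 and Car6 on the high side. Earlier results of these data were known when the choice was made. The set reaches to 330.4 kb from Mir34a on the low side but only to 118.5 kb on the high side. All 10 have a row in the table and all 10 passed the filter on low counts. Poly(A) RNA was sequenced from 6 mouse induced pluripotent stem cell lines, 3 of genotype miR-34a-/- (knockout) and 3 wild type. All 6 lines share the C57BL/6 strain label and were reprogrammed with pMX retroviruses for mouse Oct4, Sox2 and Klf4 from fibroblasts of littermate embryos of embryonic day 13.5. Each line grew from 1 picked colony and was kept on irradiated fibroblast feeders. The extent of the deletion, and any sequence put in its place, are not stated in the sources used here, nor is which lines share an embryo, so the spread between lines of a genotype may not be that of independent animals.

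MicroRNA genes are read as long primary transcripts that are cut in the nucleus to a hairpin and in the cytoplasm to a short mature strand, which pairs through its seed with messages and lowers their output. The miR-34 family is induced by p53 and is known for restraining cell cycle and reprogramming. In human, the miR-34a primary transcript begins well upstream of the hairpin. The levels of the genes on either side of a deleted hairpin are a usual check of a knockout line.

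The sequence that the knockout label refers to is shown with its family member, because the family shares a seed and the neighbours can be searched for matches to it. Capitals mark the seed, bases 2 to 8, and the sequences are those of RefSeq for GRCm38.p6.
mmu-miR-34a-5p: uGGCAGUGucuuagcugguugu
mmu-miR-34a-3p: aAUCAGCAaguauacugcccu
mmu-miR-34b-5p: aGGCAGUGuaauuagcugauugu
The 5p strands of miR-34a and miR-34b hold the same seed, while the 3p strand of miR-34a holds another. miR-34a-5p lies at chr4:150068473-150068494 on the plus strand and its 3p partner at chr4:150068517-150068537.

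The Mir34a hairpin row (ENSMUSG00000065493, chr4:150068454-150068555) held 1, 0 and 0 counts in knockout replicates 1 to 3 and 2, 0 and 0 counts in wild-type replicates 1 to 3. Both genotypes were at or under 3 counts, so no fold was computed and the row gave no check of the labels. The annotated transcript that touches the hairpin, Gm37795, shares its last 17 bases and has no row in the table. Depth was 8721581 to 29654855 counts in knockout and 8432597 to 25698286 counts in wild-type libraries. At the shallowest of these, 3 gene counts correspond to 0.375 CPM, the unit of level used here, which is counts scaled for library size and composition. Of the 10 pluripotency markers examined, all were expressed, with a summed level of 8610 to 9050 CPM in knockout and 7040 to 7080 CPM in wild-type lines. The knockout was higher in 8 of them and lower in 1. Their rows for Pou5f1 (Oct4), Sox2 and Klf4 may also hold reads of the reprogramming retroviruses, which was not tested. Of 12 fibroblast markers, which feeders or residual fibroblasts would bring, none was at 0 in all libraries, and their summed level was 480 to 553 CPM in knockout and 639 to 844 CPM in wild-type lines. Among the 11 fibroblast markers that were tested, the knockout was higher in 3 and lower in 7. Over all genes tested, by the test described below, 26.5% were higher and 24.0% lower. The part of the fibroblast markers is taken up next. Their part in the results on the flanking genes was not tested, and in bulk samples fewer cells of a type and less RNA per cell cannot be told apart.

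The closest tested gene on each side of Mir34a was strongly higher in the knockout, and the next tested genes outward were not, or much less so. Gm13067 and Gpr157 rose about as much as each other, H6pd rose slightly, Slc2a7 and Car6 rose at levels near or under 2 CPM, and Gm13068 fell. Of the 10 genes, 5 were called higher, 1 lower and 4 did not pass, with 0.05 as the limit on p-values adjusted by Benjamini-Hochberg over 14717 genes in edgeR's quasi-likelihood test. Over all genes tested, 50.5% were called, 26.5% higher and 24.0% lower, so the number of calls among the flanking genes is near the background and only the sizes of the changes are described in what follows. The knockout and wild-type libraries did not overlap in 7 of the 10 genes, against 56.0% of all genes tested. The median log2 fold change, knockout over wild type, was 0.30 for the 10 genes and 0.01 for all genes. The median absolute log2 fold change was 0.60 for the 10 genes and 0.27 for all genes. Car6, Slc2a7 and Gm13068 reached the filter level of 0.564 CPM in all 3 libraries of only the genotype where they were higher. The medians and the count of genes without overlap include them, so these are a description and not a result about the 10 genes. The count of 6 calls fell to 3 without knockout replicate 2 and to 3 with DESeq2, where Gm13067, Gpr157 and Slc2a7 stayed called both times.

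**Figure D1:**
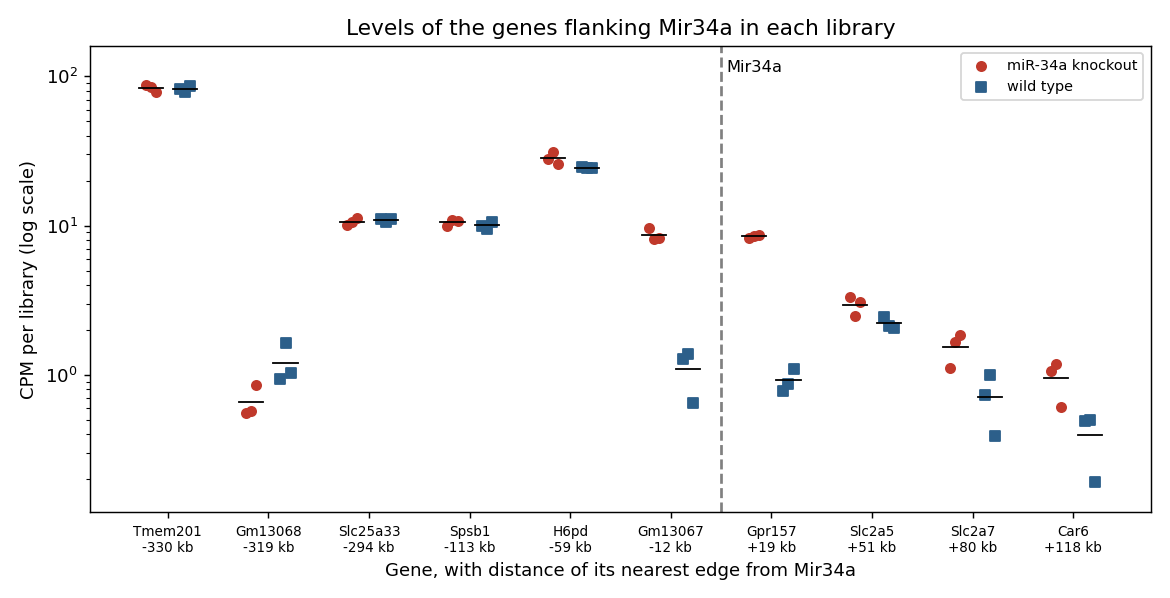
Level of each of the 10 genes in CPM (log scale) in the 3 knockout libraries (circles) and the 3 wild-type libraries (squares), with black bars for the means, in order of position and with the distance of the nearest gene edge from Mir34a. Gm13067 and Gpr157, on either side of Mir34a, sit between 8.08 and 9.63 CPM in the knockout and between 0.644 and 1.38 CPM in the wild type, while Tmem201, Slc25a33 and Spsb1 overlap.

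Gpr157 (ENSMUSG00000047875, chr4:150087365-150105927, plus strand) begins 18.8 kb beyond the hairpin and encodes an orphan G protein-coupled receptor, known in mouse from the cilia of neural progenitors. It had 163, 240 and 71 counts in the knockout libraries and 19, 7 and 17 counts in the wild-type libraries. The levels were 8.26, 8.58 and 8.71 CPM in knockout replicates 1 to 3 and 0.779, 0.876 and 1.1 CPM in wild-type replicates 1 to 3. Every knockout library was above every wild-type library, and the knockout values lay close together. The mean was 8.52 ± 0.228 CPM in knockout and 0.917 ± 0.162 CPM in wild-type lines (SD, n = 3 each), a 9.36-fold difference (log2 fold change 3.23, SE 0.183, adjusted p = 3.3e-11, edgeR). Of the 50-base stretches of its transcript, 97.1% occur in no other annotated gene.

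Gm13067 (ENSMUSG00000086665, chr4:150049013-150056976, plus strand) is a long intergenic noncoding RNA that ends 11.5 kb before the hairpin and is read in the same direction. It had 190, 226 and 67 counts in the knockout libraries and 31, 11 and 10 counts in the wild-type libraries. The levels were 9.63, 8.08 and 8.22 CPM in knockout replicates 1 to 3 and 1.27, 1.38 and 0.644 CPM in wild-type replicates 1 to 3. The groups again did not overlap, and wild-type replicate 3 was the lowest of the 6 libraries. The mean was 8.64 ± 0.86 CPM in knockout and 1.1 ± 0.396 CPM in wild-type lines (SD, n = 3 each), a 7.96-fold difference (log2 fold change 2.99, SE 0.202, adjusted p = 4e-10, edgeR). All of its 50-base stretches occur in no other annotated gene, and no other annotated gene overlaps it. RefSeq gives Gm13067 a longer model, chr4:150029405-150058717, which begins 19.6 kb before the GENCODE one.

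Among all 14717 genes tested, 178 had a log2 fold change at least as high as Gpr157 and 188 at least as high as Gm13067, counting the genes themselves. Most of those genes were near 0 in the wild-type lines. Among the 14203 genes with a wild-type mean of at least 0.5 CPM, a limit chosen after the values were seen, the counts were 13 and 17. On chromosome 4, Gpr157 and Gm13067 ranked 21 and 23 of 994 tested genes by log2 fold change, and 1 and 2 of the 951 with a wild-type mean of at least 0.5 CPM. That limit removed every other gene that had ranked above them, and it acts on wild-type values that also enter the fold. The counts and ranks under it are thus a description.

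**Figure D2:**
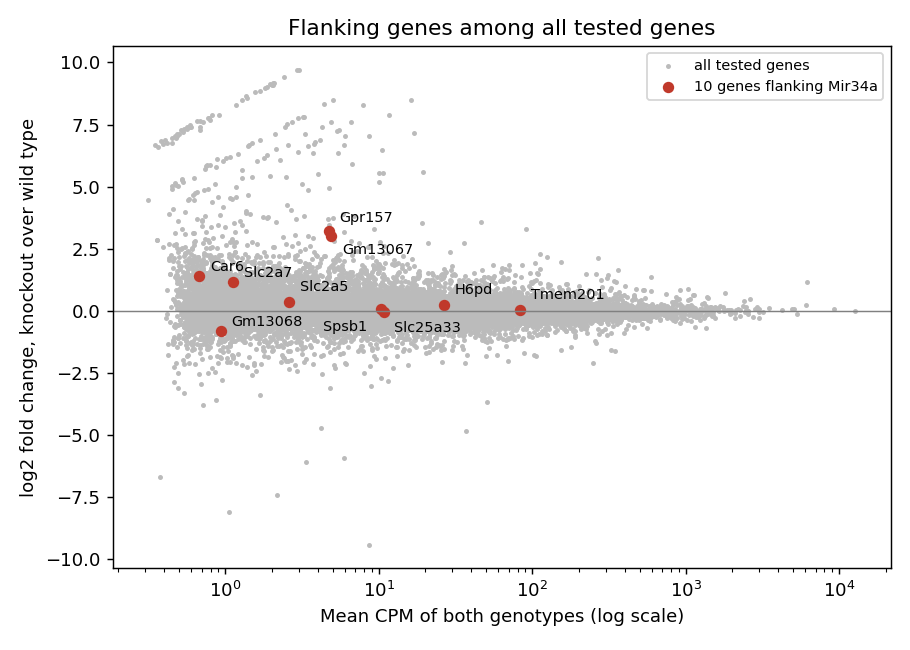
Mean CPM of both genotypes (log scale) against log2 fold change, knockout over wild type, for all tested genes (grey) and the 10 genes flanking Mir34a (red). Gpr157 at 3.23 and Gm13067 at 2.99 lie above most genes of like level, and the other 8 lie among them.

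Between Gpr157 and Slc2a5 lies the long noncoding RNA gene Gm13093, 45.3 kb from Mir34a, which had 2, 11 and 1 counts in the knockout libraries and 2, 1 and 0 counts in the wild-type libraries and was too low to be tested. The log2 ratio of Gpr157 to Slc2a5, the next tested gene on the outer side, was 1.3, 1.8 and 1.51 in the knockout libraries and -1.66, -1.28 and -0.91 in the wild-type libraries. The ratio of these CPM values was thus above 1 in every knockout and below 1 in every wild-type library, and its mean differed by 2.82 on the log2 scale (exact permutation test, two-sided p = 0.1, the smallest that 3 against 3 libraries allow). The log2 ratio of Gm13067 to H6pd, the next tested gene on its outer side, was -1.54, -1.94 and -1.66 in the knockout and -4.28, -4.15 and -5.24 in the wild-type libraries. That mean differed by 2.84 on the log2 scale (exact permutation test, two-sided p = 0.1, again the smallest possible). The log2 ratio of Gpr157 to Gm13067 averaged -0.02 ± 0.177 in knockout and -0.20 ± 0.835 in wild-type lines (SD, n = 3 each; exact permutation test, two-sided p = 0.8). These 3 ratios are among 6 computed and were chosen after the values were seen, and after Benjamini-Hochberg adjustment over the 6 the smallest p was 0.12, so none passed. The log2 ratio of Gpr157 to Slc2a7 differed by 2.04, of Gpr157 to Car6 by 1.89 and of Gpr157 to H6pd by 3.02, each at an exact permutation p = 0.1.

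The promoter windows of Gpr157 and Gm13067, from 250 bases before to 50 bases after the start that RefSeq (GRCm38.p6) gives, are shown because both genes rose. For Gm13067 this is the start of the longer RefSeq model. Capitals mark the motifs searched on both strands, which were the GC box GGGCGG, the E-box CACGTG and the TATA box TATAAA, and overlapping matches were counted.
Gpr157: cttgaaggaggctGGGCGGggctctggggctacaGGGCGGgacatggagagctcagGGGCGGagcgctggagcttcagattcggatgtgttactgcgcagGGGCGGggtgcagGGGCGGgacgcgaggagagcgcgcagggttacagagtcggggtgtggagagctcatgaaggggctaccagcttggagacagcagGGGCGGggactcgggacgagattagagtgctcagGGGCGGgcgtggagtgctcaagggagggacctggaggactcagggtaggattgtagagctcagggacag
Gm13067: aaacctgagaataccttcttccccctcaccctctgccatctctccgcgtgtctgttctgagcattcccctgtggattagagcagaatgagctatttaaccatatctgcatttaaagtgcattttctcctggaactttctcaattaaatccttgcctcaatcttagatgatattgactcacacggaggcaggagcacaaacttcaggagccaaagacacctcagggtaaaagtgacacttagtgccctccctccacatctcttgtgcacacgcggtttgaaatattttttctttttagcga
The Gpr157 window (chr4:150087253-150087552, plus strand) held 7 GGGCGG matches and neither of the other motifs. The Gm13067 window (chr4:150029155-150029454, plus strand) held none of the 3. Of all 32851 promoter windows, 35.7% held the GC box, 7.2% the E-box and 13.6% the TATA box. The windows also differed in base composition, with 65.7% G or C and 18 CpG for Gpr157 and 44.7% and 6 CpG for Gm13067, against medians of 52.7% and 7 over all windows. RefSeq windows were found for 9 of the 10 genes, all but Gm13068. Among the sugar transporter genes, Slc2a5 held 3 GGGCGG matches and Slc2a7 none. Spsb1 held 3, Tmem201 2, Slc25a33 1, Car6 1 and H6pd none, so the motif also stood in genes that were not called. Slc25a33 and Car6 also held 1 E-box each.

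Slc2a5 and Slc2a7 encode the sugar transporters GLUT5 and GLUT7, of which GLUT5 carries fructose. Slc2a5 (ENSMUSG00000028976, chr4:150119283-150144169) lies 50.7 kb from Mir34a and had 3.35, 2.47 and 3.07 CPM in the knockout libraries and 2.46, 2.13 and 2.06 CPM in the wild-type libraries. The lowest knockout library stood just above the highest wild-type library. The log2 fold change of 0.36 (SE 0.198, 95% interval -0.03 to 0.75) was not called (adjusted p = 0.14, edgeR). The interval reaches from no change to a change far under that of Gpr157.

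Slc2a7 (ENSMUSG00000062064, chr4:150148972-150168482, 80.4 kb from Mir34a) had 22, 46 and 15 counts in the knockout libraries and 18, 8 and 6 counts in the wild-type libraries. The levels were 1.12, 1.65 and 1.84 CPM in the knockout and 0.738, 1 and 0.387 CPM in the wild type. The groups did not overlap, but knockout replicate 1 and wild-type replicate 2 lay close together. All 3 knockout but only 2 wild-type libraries reached the filter level of 0.564 CPM. Slc2a7 rose with a log2 fold change of 1.14 (SE 0.325, adjusted p = 0.0064, edgeR). Over the SLC2A family list, 7 of 12 genes were tested, of which 2 were higher, 0 lower and 5 not called. Slc2a7 is itself among the higher genes and Slc2a5 among those not called. The shares over all genes tested were 26.5% higher and 24.0% lower. The endosomal transporter gene Slc2a8 rose to 21.1 CPM in knockout, against 12.6 CPM in wild-type lines (log2 fold change 0.74, adjusted p = 6.5e-06, edgeR), and the high-affinity glucose transporter gene Slc2a3 had 1530 CPM in knockout and 1410 CPM in wild-type lines (adjusted p = 0.086, edgeR).

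Car6 and H6pd encode enzymes and lie on opposite sides of Mir34a. Car6 (ENSMUSG00000028972, chr4:150187015-150201332, minus strand, 118.5 kb away) encodes the secreted carbonic anhydrase of saliva. It had 21, 33 and 5 counts in the knockout libraries and 12, 4 and 3 counts in the wild-type libraries. The levels were 1.06, 1.18 and 0.613 CPM in the knockout and 0.492, 0.5 and 0.193 CPM in the wild type. Knockout replicate 3 stood near the wild-type libraries, and 5 counts lie close to the floor of that library. Car6 rose with a log2 fold change of 1.38 (SE 0.381, adjusted p = 0.0052, edgeR). No wild-type library reached the filter level, so Car6 entered the test through the knockout libraries alone. With no filter beyond 1 count its adjusted p was 0.0032, and with DESeq2 it was 0.058. Of 12 carbonic anhydrase genes tested, of 16 listed, 2 were higher, 4 lower and 6 not called. Car6 is itself among the higher genes. The shares over all genes tested were 26.5% higher and 24.0% lower. Among the 4 lower genes, Car3 entered the test through the wild-type libraries alone. The cytosolic Car2 fell to 9.66 CPM in knockout, against 31.1 CPM in wild-type lines (log2 fold change -1.69, adjusted p = 1e-10, edgeR). The membrane-bound Car4 and the cytosolic Car13 had log2 fold changes of -1.59 and 0.72, both called.

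H6pd (ENSMUSG00000028980, chr4:149979475-150009023, minus strand, 59.4 kb away) encodes the hexose-6-phosphate dehydrogenase of the endoplasmic reticulum, which supplies NADPH there. Its level was 28, 31 and 26 CPM in the knockout libraries and 24.7, 24.4 and 24.3 CPM in the wild-type libraries. The groups did not overlap, and the wild-type libraries were closer to each other than the knockout libraries. H6pd rose with a log2 fold change of 0.23 (SE 0.0787, adjusted p = 0.02, edgeR), a 1.17-fold difference. The call was lost without knockout replicate 2 (adjusted p = 0.18) and without wild-type replicate 1, 2 or 3 (adjusted p = 0.054, 0.053 and 0.051). It was also lost when library trends with GC content were removed (log2 fold change 0.09, adjusted p = 0.33) and with DESeq2 (adjusted p = 0.082). Of 10 pentose phosphate pathway genes tested, of 12 listed, 6 were higher, 1 lower and 3 not called. The higher genes include H6pd itself. The shares over all genes tested were 26.5% higher and 24.0% lower, and the list was not tested as a set. G6pdx, the cytosolic enzyme of the same step, rose to 162 CPM in knockout, against 119 CPM in wild-type lines, and the transketolase gene Tkt rose to 945 CPM in knockout, against 735 CPM in wild-type lines (adjusted p of 1.8e-06 and 1.6e-05 by edgeR). The X-linked Tktl1 had 15, 25 and 10 counts in the knockout libraries and 1, 0 and 0 in the wild-type libraries, and entered the test through the knockout libraries alone. G6pdx is X-linked as well, and of 512 X-linked genes tested 278 were higher and 76 lower, with a median log2 fold change of 0.37.

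Spsb1, Slc25a33 and Tmem201 did not pass the test. Spsb1 (ENSMUSG00000039911, chr4:149896283-149955043, 113.4 kb away) encodes a SPRY and SOCS box adaptor of a ubiquitin ligase that targets inducible nitric oxide synthase. It had 9.94, 10.9 and 10.7 CPM in the knockout and 9.97, 9.51 and 10.6 CPM in the wild type (a log2 fold change of 0.06, 95% interval -0.15 to 0.27, adjusted p = 0.66, edgeR). Slc25a33 (ENSMUSG00000028982, chr4:149744036-149774277, 294.2 kb away) encodes a mitochondrial pyrimidine nucleotide carrier. It had 10.1, 10.5 and 11.2 CPM in the knockout and 11, 10.5 and 11 CPM in the wild type (a log2 fold change of -0.05, 95% interval -0.26 to 0.15, adjusted p = 0.69, edgeR). Tmem201 (ENSMUSG00000044700, chr4:149715375-149738044, 330.4 kb away) encodes SAMP1, a protein of the inner nuclear membrane. It had 87.7, 84.9 and 78.1 CPM in the knockout and 82, 78.9 and 86 CPM in the wild type (a log2 fold change of 0.03, 95% interval -0.09 to 0.14, adjusted p = 0.75, edgeR). In all 3 genes the knockout and wild-type values overlapped, and the highest upper bound of the 3 intervals was 0.27 on the log2 scale, that of Spsb1.

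Each of these 3 genes was set beside a list of related genes, in which it is itself counted among those not called. Over all genes tested, 26.5% were higher and 24.0% lower, and no list was tested as a set. In the list of SPSB genes and their ligase partners, which also holds Pawr and the untested Nos2, 1 of 9 tested genes was higher, 1 lower and 7 not called. The elongin genes Elob and Eloc had log2 fold changes of 0.28 and -0.41, both called, and the scaffold gene Cul5 had -0.16 (adjusted p = 0.074, edgeR). Of 9 nucleotide carrier genes of the SLC25 family, 6 were higher, 0 lower and 3 not called. The adenine nucleotide carrier genes Slc25a4 and Slc25a31 and the pyrimidine carrier gene Slc25a36 rose by 0.42, 1.58 and 0.32 on the log2 scale, Slc25a31 having entered the test through the knockout libraries alone. Of 17 nuclear envelope genes, 8 were higher, 3 lower and 6 not called. Emd, which encodes emerin and is X-linked, rose to 167 CPM in knockout, against 97.4 CPM in wild-type lines, and the LINC complex genes Syne3 and Sun1 rose by 1.19 and 0.42 on the log2 scale.

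Gm13068 (ENSMUSG00000085403, chr4:149748518-149749607, plus strand) is an antisense RNA that lies inside Slc25a33, on the opposite strand, 318.8 kb from Mir34a. It had 11, 16 and 7 counts in the knockout libraries and 23, 13 and 16 counts in the wild-type libraries. The levels were 0.558, 0.572 and 0.858 CPM in the knockout and 0.943, 1.63 and 1.03 CPM in the wild type, without overlap. Gm13068 fell with a log2 fold change of -0.84 (SE 0.326, adjusted p = 0.039, edgeR). The call was lost with DESeq2 (adjusted p = 0.15), without knockout replicate 1 or 2 (adjusted p = 0.12 and 0.14) and without wild-type replicate 2 or 3 (adjusted p = 0.13 and 0.059). The filter level was reached in 2 knockout and 3 wild-type libraries. Only 71.1% of its 50-base stretches occur in no other annotated gene when both strands are searched, and 87.4% of those of Slc25a33. The labels describe strand-specific libraries, but whether the counting used strand is not stated in the sources used here, so reads of the pair may be shared.

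**Figure D3:**
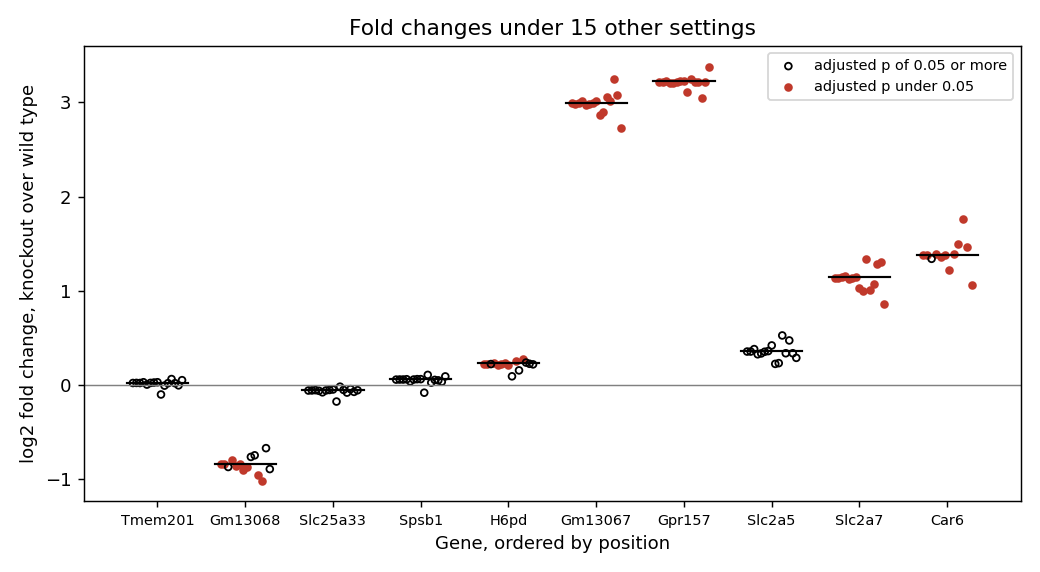
log2 fold change, knockout over wild type, of the 10 genes in order of position. Black bars are the values reported in the text and points the other settings in which a gene was tested, up to 15, filled where the adjusted p was under 0.05. Gpr157 ranges over 3.05 to 3.38 and Gm13067 over 2.72 to 3.25. H6pd, Gm13068 and, through DESeq2 alone, Car6 have points on both sides of the threshold.

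Divided by the annotated exon length, the order of levels in the knockout was Gm13067, Tmem201, Slc25a33, H6pd, Spsb1, Gpr157, Slc2a5, Slc2a7, Gm13068 and Car6. Gm13067 reached 21.4 ± 2.13 CPM per kb of exon in the knockout (SD, n = 3), above Tmem201 at 9.34 ± 0.552. The libraries of Slc25a33 and H6pd overlapped at 5.61 ± 0.285 and 5.41 ± 0.486 CPM per kb. So did those of Slc2a5, Slc2a7 and Gm13068, at 0.87, 0.821 and 0.757 CPM per kb, and of Gm13068 and Car6. In the wild-type lines, Tmem201 led at 9.2 ± 0.394 CPM per kb and Gm13067 was the fourth at 2.72 ± 0.979, overlapping Spsb1 at 2.28 ± 0.121. Gpr157 had the lowest wild-type mean of the 10 genes, 0.187 ± 0.0331 CPM per kb, overlapping Car6 at 0.218 ± 0.0963, and 1.74 ± 0.0465 CPM per kb in the knockout lines. The level of Gm13067 per length rests on an exon length of 404 bases in GENCODE M21, whereas RefSeq gives a longer model.

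Within 1 Mb of Mir34a, 61 annotated genes have a row and 31 were tested, of which 9 were higher and 8 lower in the knockout. On the low side 11 of 18 tested genes were called (61.1%) and on the high side 6 of 13 (46.2%), beside 50.5% of all genes. A called increase of at least 2-fold was reached by Gm13067, Gpr157, Slc2a7, Car6 and Tnfrsf9. No wild-type library reached the filter level for Car6 or Tnfrsf9, which entered the test through the knockout libraries alone, and only 2 did for Slc2a7, so their number is not set against that of all genes. Tnfrsf9, 846 kb away, encodes the T cell costimulatory receptor 4-1BB and had 36, 43 and 15 counts in the knockout libraries and 7, 0 and 3 counts in wild-type libraries, with a fitted log2 fold change of 2.99 (SE 0.397) that rests on these few wild-type counts. It overlaps Camta1 on the opposite strand, so reads may be shared there too. The 5 tested genes between Car6 and Tnfrsf9 had log2 fold changes of -0.22 to 0.46, of which only that of Errfi1, a feedback inhibitor of EGF receptor signalling, was called, at -0.22. The glycolytic enzyme gene Eno1, 168.2 kb away, had 2950 CPM in knockout and 3060 CPM in wild-type lines (log2 fold change -0.05), and Rere, a nuclear corepressor gene at 213.1 kb, had 163 CPM in knockout and 151 CPM in wild-type lines (log2 fold change 0.11), neither called.

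The other called genes with the smallest p within 1 Mb changed by less than 2-fold. Clstn1, a calsyntenin gene, rose by 0.49 on the log2 scale at 194 ± 6.28 CPM in knockout and 139 ± 2.66 CPM in wild-type lines (SD, n = 3 each). The ubiquitin ligase gene Ube4b fell to 187 ± 1.9 CPM in knockout, against 256 ± 13.3 CPM in wild-type lines. Pik3cd, Dffa, Cenps and Camta1 had log2 fold changes of -0.38, -0.37, -0.38 and -0.46. Pgd, the pentose phosphate enzyme gene that lies 901.7 kb away, had -0.24.

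**Figure D4:**
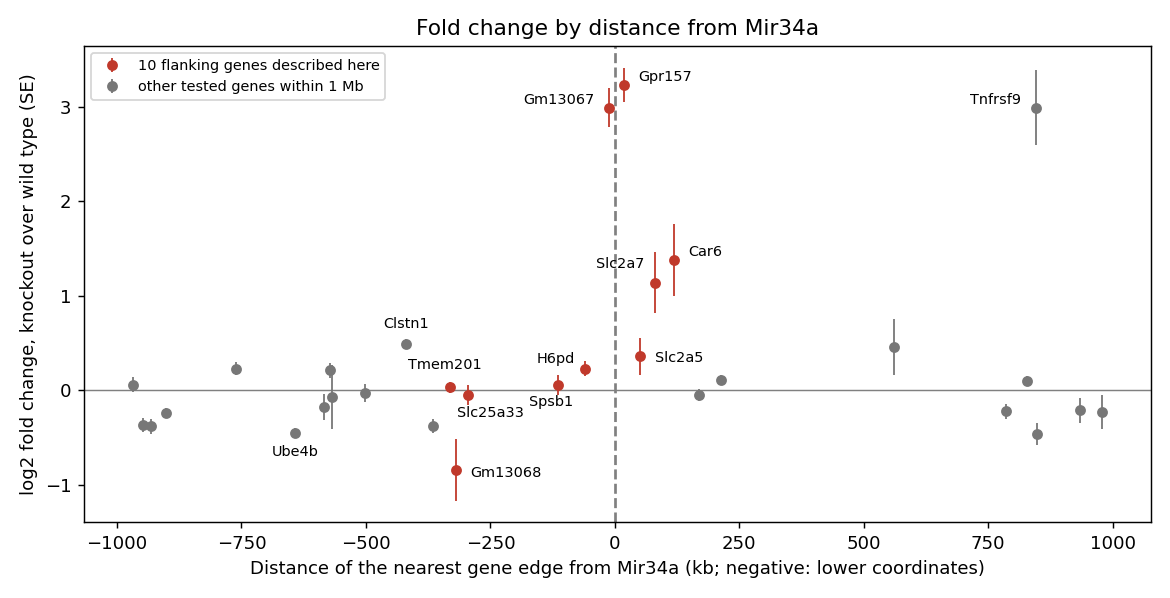
log2 fold change, knockout over wild type, with SE, against the distance of the nearest gene edge from Mir34a in kb for the 31 tested genes within 1 Mb, the 10 described genes in red and the others in grey. Gm13067 and Gpr157 stand at 2.99 and 3.23 beside Mir34a, H6pd and Slc2a5 next to them stand at 0.23 and 0.36, and Tnfrsf9 stands at 2.99 at 846 kb.

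Loss of a microRNA can be read in messages that pair with its seed, so the annotated 3' untranslated regions of the flanking genes were searched for the complement of the miR-34a-5p seed, CACTGCC. Of the 10 genes, 7 have such a region in GENCODE M21, and 2 of these, H6pd and Tmem201, held a match. Gpr157, Slc2a5, Car6, Spsb1 and Slc25a33 held none. Of 21173 mouse genes with an annotated region, 15.6% held a match in the longest one, and 5.4% held the match followed by A. The median length of these longest regions was 1084 bases, shorter than those of H6pd and Tmem201, and length was not taken into account. The matches are shown with 15 bases before and 1 after, capitals marking the 7 complementary bases and positions counted from the first base after the stop codon.
H6pd, match at base 594: ctctacagacacagaCACTGCCa
H6pd, match at base 1499: ttcgcttttcttgctCACTGCCt
H6pd, match at base 1651: tgaataacggtgagtCACTGCCc
Tmem201, match at base 1807: gcctacgtgtccagcCACTGCCt
H6pd held 3 matches in 2083 bases, the first of them followed by A, and Tmem201 held 1 match in 2629 bases. The log2 fold change was 0.23 for H6pd and 0.03 for Tmem201. Among the genes without a match it was 3.23 for Gpr157, 0.36 for Slc2a5, 1.38 for Car6, 0.06 for Spsb1 and -0.05 for Slc25a33. Whether loss of miR-34a acted on any of these genes was not tested. A match is a description of the letters and not a measured site.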

How the data were processed

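The 6 libraries were grouped by the titles in the labels. The deposited table holds raw counts per gene and repeat family, whole numbers that the authors did not normalize, and TopHat2 2.0.11, featureCounts 1.4.5 and mm10 are named in the submitters' processing notes. A repeat-run table, with 6 columns whose names match no label, was not used. Symbols came from GENCODE M21, of the same build, and matched 40254 of 41388 gene rows.

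Gene rows entered edgeR 4.0.16 in R 4.3.3 (filterByExpr, TMM, glmQLFit with robust = TRUE, glmQLFTest, two-sided, no covariate). p-values were adjusted over all 14717 genes tested, and a gene was called under 0.05. SE was taken as the size of the log2 change over the root of the F statistic, and 95% intervals are 1.96 SE on either side. CPM used TMM-scaled sizes of gene counts. Library pairs differed by more than sampling noise (chi-square per degree of freedom of 2.25 or more over genes with at least 20 counts), so all 6 counted. The steps were tested on simulated counts. Other settings included DESeq2 1.42.0 and limma 3.58.1 voom. The members, lists and windows were chosen with earlier results of these data known. Named are the 10 genes, Mir34a, up to 10 called, non-overlapping genes within 1 Mb with the smallest p, and up to 3 genes of each list. Eno1, Rere, Errfi1, Gm13093 and Gm37795 were named after their values were seen.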

Additional observations from a re-analysis of the deposited data

How the results depend on the processing

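The log2 fold changes of Gm13067 (2.72 to 3.25), Gpr157 (3.05 to 3.38) and Slc2a7 (0.86 to 1.34) kept their direction and their call in all 15 alternatives. Car6 could be tested in 12 of them and lost its call with DESeq2. Of the 10 genes, 3 were called with DESeq2, and 3 to 6 when each library was left out. Within 0.5 Mb of Mir34a 8 of 14 tested genes were called, and within 2 Mb 29 of 54, numbers that follow from the size of the window. Over the whole table the calls ranged from 6118 to 7984 when each library was left out, and within 1 Mb from 12 to 19. Deviations of same-numbered lines were only weakly correlated (0.0885, -0.0198 and 0.11), so the numbers were not taken to pair the lines. Pairs with different numbers had correlations from -0.116 to 0.0629, some of them above that of the lines numbered 2. With the replicate number as a block 7834 genes were called over the whole table, 18 within 1 Mb and 6 of the 10 flanking genes, the last count being the one without the block. Spsb1 and Tmem201 changed sign in some settings without being called in any. Counts of 46 or fewer per library limit Car6, Slc2a7 and Gm13068.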

Other observations

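Farther out on chromosome 4 the calls are given as a description, beside 26.5% higher and 24.0% lower over all genes tested. From 1 to 2 Mb, 6 of 16 tested genes were higher and 2 lower in the knockout on the low side, and 0 of 7 higher and 4 lower on the high side. From 2 to 5 Mb, both sides held more higher than lower genes, 14 and 2 of 50 on the low side and 10 and 3 of 28 on the high side, with median log2 fold changes of 0.24 and 0.17. From 5 to 10 Mb, 29 of 54 were higher and 7 lower on the low side, and 5 of 41 higher and 12 lower on the high side, with medians of 0.33 and -0.12. In that span 21 genes on the low side (38.9%) and 1 on the high side (2.44%) had a called increase of at least 2-fold, beside 7.6% of all genes. How many of them entered the test through the knockout libraries alone was not examined, so no excess is read from these shares. The difference between the sides was not tested. The median over the 994 tested genes of the chromosome was -0.01.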
